A study of Mus musculus with 6 samples.

Results

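The simple epithelial keratins are intermediate filament proteins of single-layered epithelia, and 5 of their genes, Krt8, Krt18, Krt7, Krt19 and Krt20, were followed here through adult mouse hippocampus. They were found as the probe sets that carry 1 of these symbols alone, and all 5 were among the 19938 genes measured, each with 1 probe set. Krt8 was taken up because it stands in the study's list of genes that differed on these same arrays, and the others because they belong to the same family, so the ethanol and saline values of the members are a description and carry no test. Ethanol-exposed mice had received 2.5 g/kg of ethanol in saline under the skin, and control mice saline alone, as 2 injections a day, on day 4 and again on day 7 after birth. All were C57BL/6J males, and the hippocampus was taken at 70 days of age. RNA of 3 mice from different litters was pooled for each array and each group had 3 arrays, so that the 6 arrays stand for 9 ethanol-exposed and 9 saline-injected mice. Littermate pups had been divided between the groups, and which pools share litters was not used here. No p-value here goes beyond the spread between these pools. The array was the Affymetrix Mouse Gene 1.0 ST, and the deposited values are log2 expression levels.

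A keratin filament is built from pairs of 1 type I and 1 type II chain, and neither type forms a stable filament alone. Krt8 encodes a type II chain and Krt18 its usual type I partner, the pair that appears first in embryonic epithelia and persists in liver, gut and other simple epithelia. Neurons and astrocytes use other intermediate filaments. In the brain, simple epithelial keratins are found in the choroid plexus, the secretory epithelium that makes cerebrospinal fluid in the ventricles beside the hippocampus. Its most abundant product is transthyretin, the carrier of thyroxine and of retinol-binding protein, encoded by Ttr. The comparison therefore asks 2 questions of the pools, whether the keratins differed with ethanol and whether Krt8 and Krt18 followed Ttr.

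Arrays were alike over all probe sets, with a median correlation between pairs of 0.9987, and the number of arrays limits the precision (median standard error of a log2 difference 0.049). Of the 10 hippocampal neuron markers, all lay above a log2 level of 5.36. That level, the 95th percentile of the means of 1178 odorant and pheromone receptor genes (olfactory, vomeronasal), serves here as a yardstick for dim genes and is called the receptor level. None of the 19938 genes passed after Benjamini-Hochberg adjustment in limma, where the lowest adjusted p was 0.931. At an unadjusted p under 0.05, 559 genes were higher in ethanol pools and 481 lower, or 2.8% and 2.41% of all genes. After median centring of the arrays the split was 364 higher and 700 lower.

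Krt8 and Krt18 are neighbouring protein-coding genes on mouse chromosome 15 (assembly GRCm38.p6), Krt8 at chr15:101996711-102004342 on the minus strand and Krt18 at chr15:102028216-102032026 on the plus strand. Their annotated starts face away from each other across 23874 bases that hold only non-coding gene models, Gm36026 and Gm41404. The sequences from 250 bases before to 10 bases after each start, from RefSeq, are shown for these genes because they are partners in 1 filament and neighbours on the chromosome and yet differed from each other in 1 ethanol pool, as the values further on show. Capitals mark the E-box CACCTG and, at the start of Krt8, a run that reads TATAAA on both strands. The Krt8 window is chr15:102004333-102004592 and the Krt18 window chr15:102027966-102028225.
Krt8: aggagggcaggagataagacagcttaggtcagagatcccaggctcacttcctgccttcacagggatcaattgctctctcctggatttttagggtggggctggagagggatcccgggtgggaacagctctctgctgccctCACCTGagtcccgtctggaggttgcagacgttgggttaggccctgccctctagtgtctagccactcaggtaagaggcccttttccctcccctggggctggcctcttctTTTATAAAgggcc
Krt18: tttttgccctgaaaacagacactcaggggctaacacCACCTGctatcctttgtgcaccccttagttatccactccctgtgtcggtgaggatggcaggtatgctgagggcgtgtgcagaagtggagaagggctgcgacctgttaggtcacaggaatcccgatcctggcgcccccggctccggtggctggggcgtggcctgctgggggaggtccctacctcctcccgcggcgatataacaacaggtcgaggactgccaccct

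The motifs searched, on both strands and in the full 300 bases from 250 before to 50 after a start, were the core promoter motif TATAAA, the SP1 motif GGGCGG, the AP-1 motif TGANTCA, the E-box CACCTG and the OTX2 motif TAATCC. The E-box occurred once near Krt8, beginning 111 bases before the start, and once near Krt18, beginning 214 bases before it. It is held by 20.2% of 32851 promoter windows. TATAAA lay across the annotated start of Krt8 and was not in the Krt18 window, and 13.6% of windows hold it. Neither gene's window held TAATCC (7.06% of windows), TGANTCA (7.81%) or GGGCGG (35.7%). The Krt7 window held CACCTG once and GGGCGG 4 times, and the Krt20 window TATAAA once. A match of this kind is a description of letters. The gene models of the other members are Krt7 at chr15:101412403-101427806, Krt19 at chr11:100140810-100145926 and Krt20 at chr11:99428385-99438153.

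Krt8 had log2 levels of 7.21, 7.12 and 7.00 in ethanol pools 1, 2 and 3, against 6.52, 6.69 and 6.90 in saline pools 1, 2 and 3. All 3 ethanol pools lay above all 3 saline pools, and the groups were 0.11 apart at their nearest, between ethanol pool 3 and saline pool 3. The mean log2 level was 7.11 ± 0.102 in ethanol pools and 6.70 ± 0.19 in saline pools (SD, n = 3 each). The difference was 0.41 ± 0.09 (SE) on the log2 scale, or 1.33-fold with a 95% interval of 1.14 to 1.53. Krt8 was chosen on this contrast, so the interval is a description and not a test. Leaving out any 1 pool kept the difference between 0.32 and 0.51. It could not change the sign, since the groups did not overlap. In bulk tissue, more cells of a type and more RNA per cell cannot be told apart. An annotated pseudogene, Krt8-ps, lies on chromosome 7, and whether the Krt8 probes also read it was not tested. The study's own list gives Krt8 a smaller fold than the one here. The paper further reports higher Krt8 in ethanol-exposed mice by droplet digital PCR, with a larger fold than its arrays gave. That PCR used samples already used for the arrays, so it does not come from separate animals. The paper also lists a region of altered histone methylation at Krt8, which was not examined here.

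Krt18 had log2 levels of 7.00, 5.97 and 6.75 in ethanol pools 1, 2 and 3, against 6.01, 6.15 and 6.25 in saline pools 1, 2 and 3. Ethanol pools 1 and 3 were the highest of the 6, ethanol pool 2 was the lowest of the 6, and the groups overlapped. The mean was 6.57 ± 0.54 in ethanol pools and 6.14 ± 0.12 in saline pools (SD, n = 3 each). The difference of 0.44 ± 0.22 (SE) was close in size to that of Krt8, or 1.35-fold with a 95% interval of 0.954 to 1.92. It was 0.74 ± 0.09 without ethanol pool 2 and 0.22 ± 0.20 without ethanol pool 1. The 2 chains of the filament thus had like mean differences from different pools, and they parted in ethanol pool 2, where Krt8 exceeded its mean over saline pools by 0.41 and Krt18 was below its own (-0.17).

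The other 3 members were at the receptor level in every pool. Krt7, the type II chain of ductal epithelia, had log2 levels of 4.68, 4.76 and 4.79 in ethanol pools, against 4.71, 4.74 and 4.71 in saline pools. Krt20, a type I chain of gut and bladder epithelium, had 4.26, 4.27 and 4.22 in ethanol pools, against 4.27, 4.24 and 4.23 in saline pools. In both genes the groups overlapped, and the differences were 0.02 ± 0.04 for Krt7 and 0.0048 ± 0.0381 for Krt20 (SE). Krt20 had the least spread of the 5, with 0.0484 between its highest and its lowest pool, while that range was 0.69 for Krt8 and 1.02 for Krt18.

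Krt19, the smallest type I keratin, which lacks most of the tail domain, had log2 levels of 4.27, 4.47 and 4.35 in ethanol pools, against 4.45, 4.42 and 4.40 in saline pools. Here ethanol pool 2 was the highest and ethanol pool 1 the lowest, the reverse of Krt18. The difference was -0.06 ± 0.05 (SE), and the range over the 6 pools was 0.196.

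**Figure D1:**
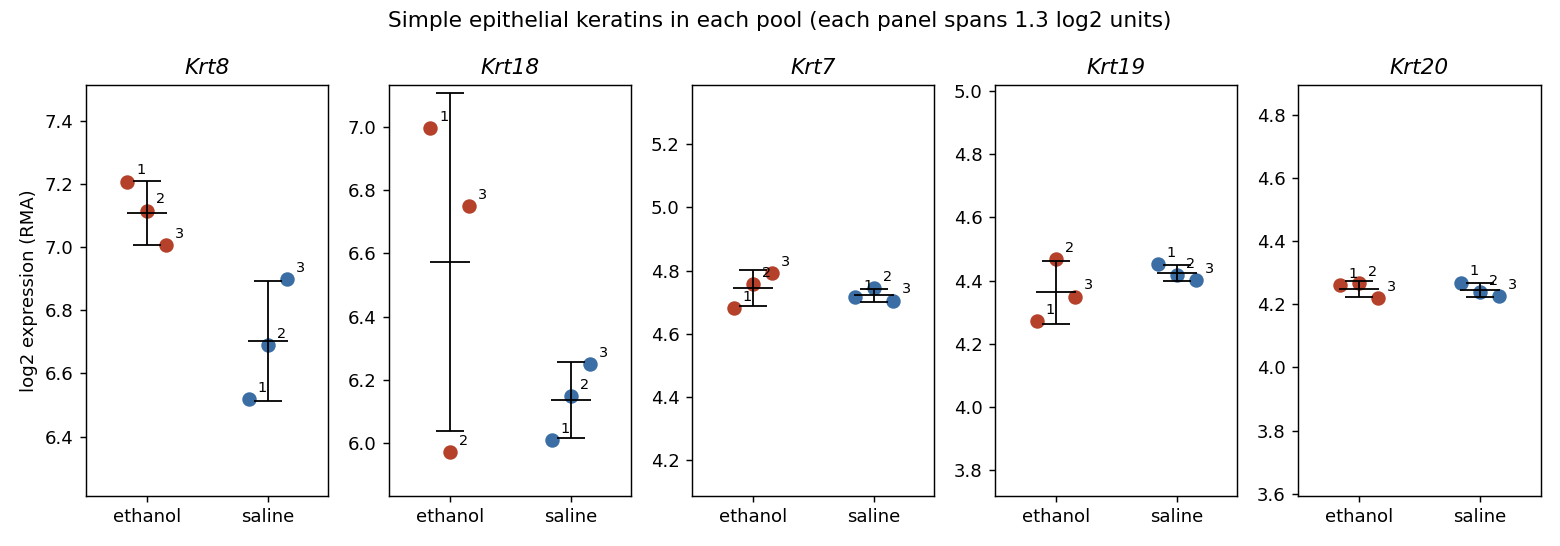
Log2 expression of the 5 keratins in each pool (points, numbered by replicate), ethanol left and saline right, with the mean and SD of each group as bars. All panels span the same log2 height. The Krt8 groups are 0.11 apart, ethanol pool 2 has the lowest Krt18, and Krt7, Krt19 and Krt20 move little.

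Of the 5 members, 1 was higher past an unadjusted p under 0.05 (Krt8) and 0 were lower, beside 2.8% and 2.41% of all genes. After adjustment over all genes 0 passed. Pools did not overlap in 1 member, with ethanol above saline, as in 5.35% of all genes. Since Krt8 was chosen on this contrast, these counts say nothing further about the members.

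The rest of the keratin family was flat by comparison. Of 47 other keratins, 39 lay at the receptor level, and their differences between ethanol and saline ran from -0.11 to 0.13. Their median difference was -0.021, beside 0.00014 over all genes. At the unadjusted threshold 4 were higher and 0 lower, beside 2.8% and 2.41% of all genes. The 4 were the hair keratins Krt31 (0.13 ± 0.05, SE) and Krt39 (0.13 ± 0.04) together with Krt42 (0.13 ± 0.05) and Krt90 (0.12 ± 0.04). All of them lay at the receptor level. Krt39 also stands in the study's list from these arrays, with a larger fold than the 1.1 here, so this count is not independent evidence. After median centring the count was 4 higher and 1 lower. Krt39 had log2 levels of 4.37, 4.39 and 4.41 in ethanol pools, against 4.30, 4.24 and 4.24 in saline pools, so its groups did not overlap but differed by far less than those of Krt8. Among the other keratins the widest spread over the 6 pools was 0.35 (Krt77) and the median spread 0.159.

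**Figure D2:**
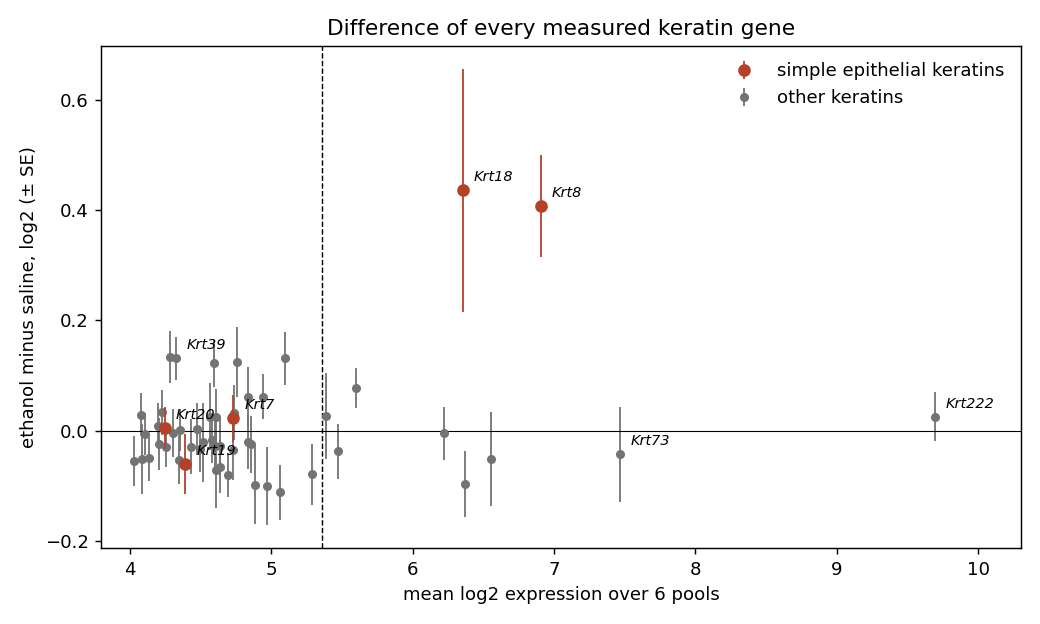
Ethanol minus saline on the log2 scale (points, with SE) against the mean log2 level over 6 pools for 52 keratin genes, members in red and the others in grey. The dashed line is the receptor level, 5.36. Krt8 and Krt18 lie near 0.4, while every other keratin lies between -0.11 and 0.13.

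Among genes that anchor keratins or accompany them in epithelia, changes were small. Of 44 keratin-associated proteins of hair, 0 were higher and 2 lower, Krtap4-1 (-0.16 ± 0.04, SE) and Krtap3-1 (-0.15 ± 0.06), with a median of -0.0002. Of 12 genes of desmosomes and of the linker proteins that tie filaments to them, 1 was higher, the desmosomal cadherin Dsg2 (0.14 ± 0.05), and 1 lower, the linker Eppk1 (-0.13 ± 0.05), with a median of -0.022. Of 14 genes of the general epithelial programme, 12 lay at the receptor level and the median was -0.0083. In that list 1 gene was lower, the adhesion molecule Epcam, with 4.98, 4.96 and 4.99 in ethanol pools, against 5.08, 5.08 and 5.07 in saline pools. That count was 0 without ethanol pool 1 or 2 or saline pool 1 or 3. The count of hair proteins was 5 without ethanol pool 1, 4 without saline pool 2 and 1 without ethanol pool 3 or saline pool 3. That of the linkers was 4 without ethanol pool 2 and 1 without ethanol pool 3 or saline pool 1. The 16 other intermediate filament genes gave 0 higher and 0 lower, with a median of -0.015, and 0 to 2 in all as single pools were left out (2 without saline pool 1, 1 without ethanol pool 1 or 3 or saline pool 3). The neuronal filament genes Ina and Nefl, the brightest of these, differed by 0.01 ± 0.06 and -0.05 ± 0.04.

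Ttr was among the brightest genes on the array, with only 20 genes above it. Its log2 levels were 13.26, 12.62 and 13.18 in ethanol pools, against 12.69, 12.83 and 12.90 in saline pools. Ethanol pool 2 was the lowest of the 6, below every saline pool, and ethanol pools 1 and 3 were the highest, so the groups overlapped and the difference was 0.21 ± 0.15 (SE). Ethanol pools 1 and 3 stood 0.28 above the next pool, saline pool 3, which was the widest gap in the order.

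Krt18 had the same order of pools as Ttr, from ethanol pool 2 through saline pools 1, 2 and 3 to ethanol pools 3 and 1. Pearson's r was 0.984 over the 6 pools (exact permutation p = 0.00139, two-sided over 720 pairings) and Spearman's rho 1.0 (exact permutation p = 0.00278, the smallest possible for rho). Because the question was put with these data in view, p-values were adjusted over the relations of all 19937 genes to Ttr. Neither p-value of Krt18 passed (adjusted exact permutation p = 0.447 for r and 0.589 for rho). The lowest adjusted exact permutation p of r over all genes was also 0.447. With 720 pairings a p-value has a floor, and over so many genes that floor passes only if a great many share it. Not passing therefore says little about Krt18, or about Krt19 below. Without the 2 pools farthest from the median of Ttr, ethanol pools 1 and 3, r was 0.99 in the 4 left. It was 0.993 within ethanol pools and 0.993 within saline pools (n = 3 each). An r at least this high was found in 18 genes, Krt18 included, or 0.0903% of all genes. With Ttr as a covariate the difference of Krt18 between ethanol and saline was 0.12 ± 0.06 (SE), and with the mean of the choroid plexus markers it was 0.08 ± 0.05. The part of choroid plexus in the Krt18 difference was not tested.

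Krt8 followed Ttr less closely over all pools. Its r was 0.516 (exact permutation p = 0.282) and its rho 0.429 (exact permutation p = 0.419), with adjusted values of 0.965 and 0.966. Within saline pools Krt8 had the order of Ttr, with r = 0.964, while within ethanol pools r was 0.06 (n = 3 each). With 3 pools such an r says little: within saline pools Krt20, at the receptor level, had r = -1.0. Ethanol pool 2, where Ttr was lowest, had the second highest Krt8 and lay 0.36 above the line of Krt8 on Ttr, whereas saline pool 1 lay below it (-0.27). Without ethanol pool 2, the pool farthest from the line, r was 0.96 in 5 pools, and without any other single pool it was 0.233 to 0.516, so the value of r rests on that pool. Without the 2 pools farthest from the median of Ttr it was -0.179. With Ttr as a covariate the difference of Krt8 was 0.37 ± 0.11 (SE), and with the choroid plexus mean 0.36 ± 0.11. Without a covariate it was 0.41. The part of choroid plexus in the Krt8 difference was not tested, and no fit took the thalamus markers as a covariate. Across pools Krt8 and Krt18 correlated with each other at r = 0.601 (exact permutation p = 0.194) and rho = 0.429 (exact permutation p = 0.419), with an adjusted p of 0.999 for r over all genes.

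Krt19 ran against Ttr, in exactly the reverse order of pools. Its r was -0.968 (exact permutation p = 0.00139, adjusted 0.447) and its rho -1.0 (exact permutation p = 0.00278, adjusted 0.589), and r was -1.0 in the 4 pools left without ethanol pools 1 and 3. The movement was small, over the range of 0.196 given above, and took place at the receptor level. Among the 7499 genes at that level, 10 had an r as low, or 0.133%. Krt7 (r = -0.103, exact permutation p = 0.835; rho = -0.371, exact permutation p = 0.497) and Krt20 (r = -0.431, exact permutation p = 0.354; rho = -0.6, exact permutation p = 0.242) passed no threshold. In the 4 pools left without ethanol pools 1 and 3, r of Krt20 was -0.968, although its range over all pools was only 0.0484. Over all genes, 3.27% passed an unadjusted p under 0.05 with a positive r and 2.28% with a negative one, and of the 5 members 2 did, Krt18 upward and Krt19 downward.

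**Figure D3:**
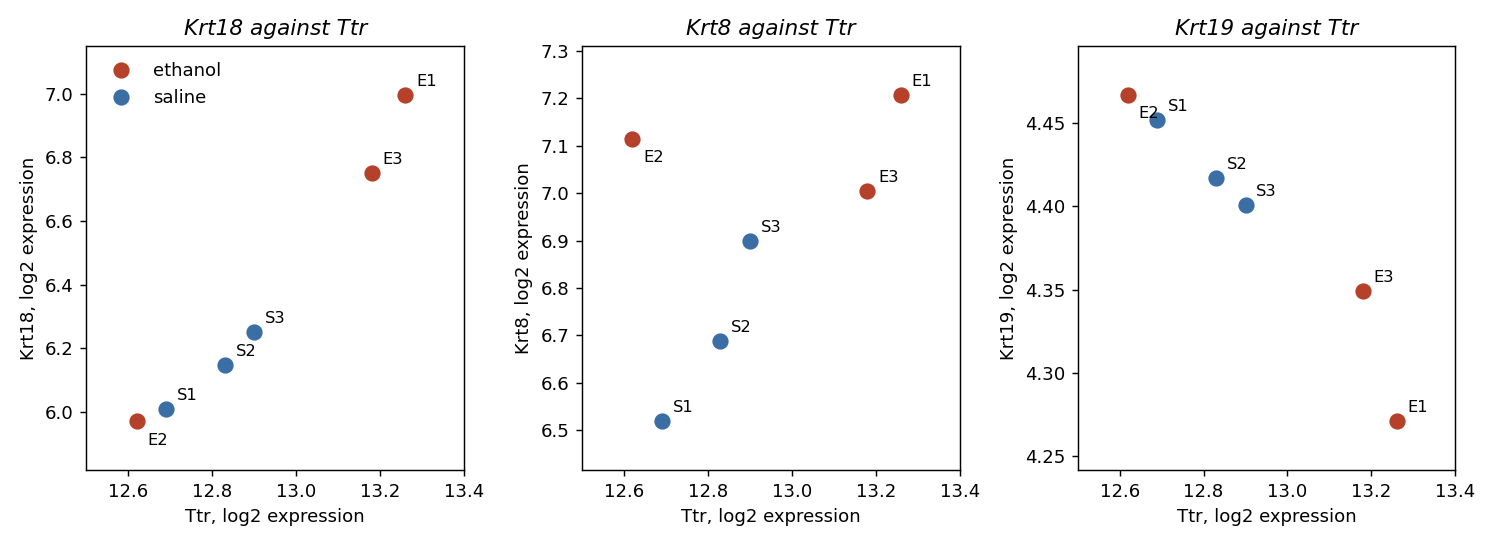
Log2 expression of Krt18, Krt8 and Krt19 against that of Ttr, with 1 point per pool (E, ethanol; S, saline). Krt18 lies along a rising line (r = 0.984) and Krt19 along a falling one (r = -0.968), while Krt8 of ethanol pool 2 lies 0.36 above its own line.

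Every other choroid plexus marker measured was highest in ethanol pool 1, as Ttr was. Of 22 markers looked for, 19 were measured, and all 19 had a positive difference, with a median of 0.5 on the log2 scale. At the unadjusted threshold 3 were higher, namely the anti-ageing protein klotho, Kl (0.52 ± 0.22, SE), Steap1 (0.50 ± 0.20) and the potassium channel subunit Kcne2 (0.45 ± 0.19), and 0 were lower. Without ethanol pool 2 the count was 18, and it was 0 when ethanol pool 1 or 3, or saline pool 1 or 2, was left out. The mean of the markers, as a log2 difference from the saline mean, was 1.05, -0.28 and 0.61 in ethanol pools 1, 2 and 3, against -0.17, -0.03 and 0.19 in saline pools 1, 2 and 3. The summed linear level of the 19 markers, most of it Ttr in every pool, was 9184.8 to 17536 in ethanol pools, against 9726.9 to 11823 in saline pools. These values overlap, and they place ethanol pool 2 at the low end and ethanol pool 1 at the high end, as Krt18 did.

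The markers' likeness to the keratins was uneven. With Krt18, 18 of the 19 markers had an r above 0.9 (all genes, 1.14%), with values from 0.844 to 0.994 that included the coagulation factor F5 at 0.994, the secreted antagonist Sostdc1 at 0.991 and the tight junction protein Cldn2 at 0.99. With Krt8, 0 of the 19 had an r above 0.9 (all genes, 0.401%), and values ran from 0.446 to 0.712. These are descriptions over the same 6 pools, and the amount of choroid plexus in a pool and the expression within it cannot be told apart.

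Markers of other tissues at the edge of the hippocampus were set beside Krt8 in the same way. The 14 thalamus markers had a median difference of 0.41. At the unadjusted threshold 9 of them were higher and 0 lower, beside 2.8% and 2.41% of all genes. How far the 9 rest on any single pool was not tested. The largest differences were in Ramp3 (0.76 ± 0.26, SE), Synpo2 (0.72 ± 0.22), Prkcd (0.67 ± 0.22) and Tcf7l2 (0.59 ± 0.14). Synpo2 and Tcf7l2 also stand in the study's list from these arrays, so this count is not independent evidence. Relative to saline the list averaged 0.77, 0.30 and 0.12 in ethanol pools 1, 2 and 3, against 0.02, -0.01 and -0.01 in saline pools. The summed linear level was 3048.3 to 4829 in ethanol pools, against 2804.5 to 2850 in saline pools, so that the groups did not overlap. As for Krt8, ethanol pool 1 was the highest and ethanol pool 3 the lowest of the ethanol pools. Of these markers 3 lay at the receptor level. The list mean had r = 0.757 with Krt8 and 0.659 with Krt18, and its part in the Krt8 difference was not tested.

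Meningeal, ependymal and vessel markers differed less. Of 13 meningeal markers 0 were higher and 0 lower, with a median of 0.062, and the list mean had r = 0.867 with Krt18 and 0.484 with Krt8. Igf2, a growth factor made by meninges and choroid plexus, differed by 0.29 ± 0.20 (SE) and had r = 0.98 with Krt18, while the matrix proteoglycan Dcn differed by 0.06 ± 0.11. Of 11 ependymal markers 0 were higher and 1 lower, Ccdc153 (-0.13 ± 0.05), with a median of 0.02. Of 9 endothelial markers 0 were higher and 0 lower, with a median of -0.028, and of 10 hippocampal neuron markers 0 and 0, with a median of 0.029. The neuronal list mean stayed within 0.0625 of the saline mean in every pool.

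**Figure D4:**
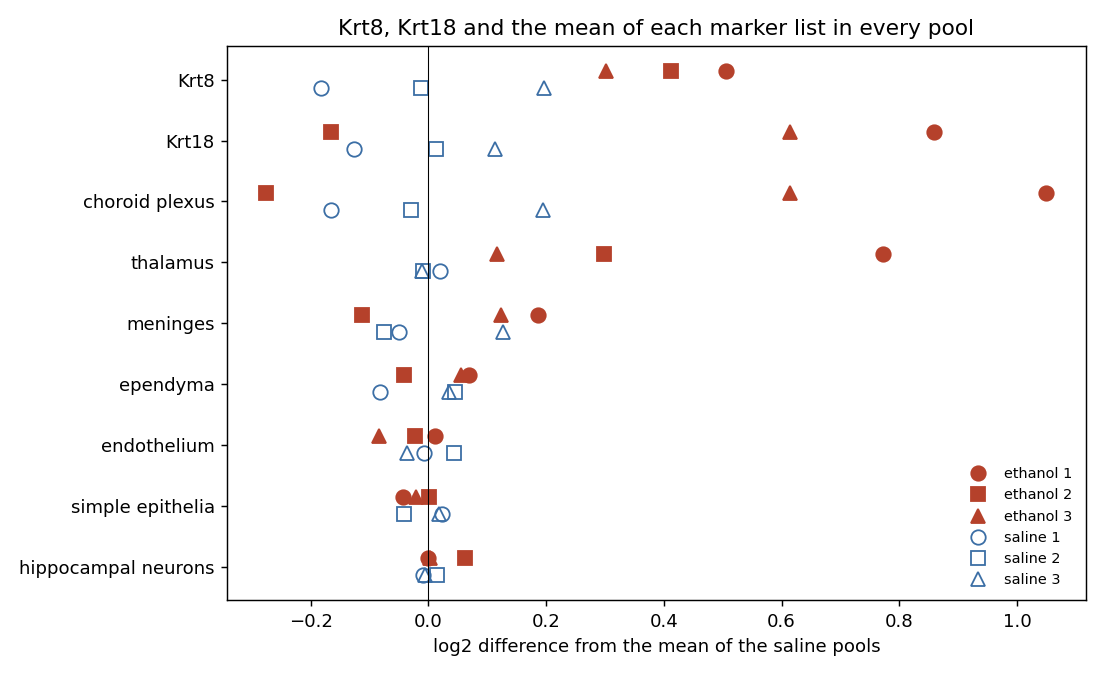
Log2 level relative to the saline average for Krt8, Krt18 and the mean of each marker list, in every pool (filled, ethanol; open, saline; shape, replicate number). Krt18 and the choroid plexus list place ethanol pool 2 lowest, at -0.17 and -0.28, while Krt8 and the thalamus list place all ethanol pools above the saline pools.

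Over the 9968 genes above the median gene level of 6.77, those most like Krt8 across the 6 pools were Usp33 (r = 0.966), Mtrex (0.961), Cpt2 (0.957), Arpc5l (0.955) and Kank1 (0.953). Ttr ranked 1156 in that order. Cpt2, the inner-membrane carnitine palmitoyltransferase of mitochondrial fat oxidation, had a mean log2 level of 7.72 in ethanol pools and 7.43 in saline pools, a difference of 0.28 ± 0.05 (SE). The genes most opposite to Krt8 were Ctdspl (r = -0.991), Mir598 (-0.98) and Ppp3cb (-0.979), the last a catalytic subunit of the phosphatase calcineurin. For Krt18 the nearest of 9969 genes were Vat1l (r = 0.996), Stmn4 (0.992), Sostdc1, Ppp1r1b and Tc2n (0.991 each), and Ttr ranked 12. The most opposite were Cspg4 and Pak7 (-0.989 each) and Spry4 (-0.973). Of these only Sostdc1 was in the choroid plexus list. Krt18 itself has a mean of 6.35, below the median gene level. Choroid plexus markers below that level were not ranked, among them F5, with r = 0.994.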

How the data were processed

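Hippocampal RNA of 3 ethanol and 3 saline pools was hybridised to Mouse Gene 1.0 ST arrays. The authors summarised probes per gene with RMA and deposited log2 values, which were used as deposited. The software version is not given in the sources used here, nor is the genome build of the array. Of 35556 probe sets, the 23410 with a symbol in the platform annotation were tested, and genes were named from the 21789 with 1 symbol, the brightest per gene. Ethanol was compared with saline by lmFit and eBayes of limma 3.58.1 (R 4.3.3), without covariate or filter, after the ANOVA of the methods. Differences and SE come from that fit, SD from the pools. Relations to Ttr were tested by exact permutation (scipy 1.17.1), adjusted over all genes by Benjamini-Hochberg. The scripts were tested on simulated data. Locations and sequences are from RefSeq tables of GRCm38.p6, whose promoter table holds 4 of the 5 members. Figures were drawn with matplotlib 3.10.9.

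The members and the 11 gene lists were chosen with earlier results of these data known, and the motifs after the sequences were read. In each list up to 4 genes past an unadjusted p under 0.05 with the largest change are named, or the 2 brightest where fewer than 2 pass, and for Krt8 and Krt18 the 5 most like and 3 most opposite genes. F5, Cldn2 and Krt77 were named after their values were seen. Alternatives were the methods' t-test, a replicate block, median centring, quantile normalization, mean of probe sets, linear scale, array weights, intensity trend, a filter on dim probe sets, choroid plexus covariates and each array left out.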

Additional observations from a re-analysis of the deposited data

How the results depend on the processing

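The difference between ethanol and saline kept its sign under every alternative run for Krt8 (0.315 to 0.505) and Krt18 (0.0751 to 0.737). For Krt8 the groups did not overlap, so leaving out a pool could not change the sign. Krt7, Krt19 and Krt20 changed sign under some alternatives, all within 1 pooled SD. The relation of Krt18 to Ttr stayed between 0.98 and 0.991, with 0.99 on deviations from each group's mean. For Krt8 it ran from 0.233 to 0.96 as pools were left out (0.96 without ethanol pool 2), and for Krt20 from -0.909 to -0.177 (-0.909 without ethanol pool 1). The count over all genes was 417 above the median level, where fewer probe sets were tested, against 1040 in the comparison as reported and 727 to 1538 under the other alternatives. The count of other keratins, 4, was 0 above the median level, 8 with array weights and 1 to 5 as pools were left out (1 without saline pool 2 or 3). The count of choroid plexus markers, 3, was 1 above the median level, 0 with array weights, 0 by the methods' t-test, 5 with the choroid plexus mean as a covariate (3 higher, 2 lower) and 0 to 18 as pools were left out. The 1 epithelial programme gene was 0 with the intensity trend and above the median level. For these the cause was not tested. Pools of 1 replicate number did not deviate together (r = -0.076, -0.009 and 0.059), which does not show whether they share litters, and the number was not taken as a pairing. With the replicate block 991 genes, 5 choroid plexus markers and 0 epithelial programme genes passed, and the Krt8 difference was 0.407 ± 0.1 (SE). With 3 pools a group, an exact permutation test between groups cannot pass 0.05 and was not run. Signals at the receptor level limit what Krt7, Krt19 and Krt20 can show.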
